A study of Vitis vinifera with 15 samples.

Results

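The skins of ripe Summer Black berries were compared with those of ripe Victoria berries by RNA sequencing, with 3 libraries of each cultivar out of 15 libraries of 5 table grape cultivars. Summer Black has a dark red skin and a strawberry aroma, and Victoria has a lime-green skin and no distinct aroma. The labels give every sample as skin at the ripening stage and name no treatment. The 6 libraries were chosen by cultivar, and the genes by an expression of at least 1 FPKM in at least 3 of the 15 libraries, which 18238 of the 31924 genes in the table reached. FPKM counts the fragments per kilobase of transcript, scaled to the mapped fragments of the library, so that levels of different genes can be compared per length. Victoria is the control of the study. Midknight Beauty (dark red), Shine muscat and Centennial Seedless (both lime green), all with a muscat aroma, are used below only to show where the other cultivars stood. Each skin type was 1 cultivar here, and Summer Black is a seedless hybrid with American grapes in its parentage while Victoria is a seeded *Vitis vinifera* grape. Skin colour, aroma, seed content and descent therefore cannot be told apart in this comparison.

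The grape skin holds the pigments of dark cultivars and a large part of the volatile compounds of the berry. Anthocyanins, the red and blue pigments, are made in the skin of dark grapes from the onset of ripening and are absent from green grapes, and the MYB genes of the colour locus switch their synthesis on. The volatiles come from several routes. Terpene synthases (TPS) make terpenes from the products of a plastid pathway whose entry enzyme is abbreviated DXS, alcohol dehydrogenases (ADH) turn aldehydes into alcohols and the alcohols can become esters, and glycosyltransferases (UGT) and β-glucosidases (BGLU) bind volatiles to sugars and set them free. Esters and furanones are known as odorants of strawberry-like grapes, and free terpenes as those of muscat grapes.

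Between Summer Black and Victoria skin, 226 of the 18238 genes tested (1.24%) were differentially expressed genes (DEGs), 107 of them higher (0.587%) and 119 lower (0.652%) in Summer Black. To count as a DEG, a gene had to move by 2 or more, up or down, on the log2(FPKM + 1) scale, and its Benjamini-Hochberg adjusted p from limma could not exceed 0.01. At any fold, 2.25% of the genes tested stayed within that p. In each of the 226 DEGs the ranges of the cultivars were apart, as they were in 31.7% of all genes tested. Most of the changed genes were of low to moderate level. The cultivar with more transcript had a median of 14.6 FPKM over the higher and 12.3 FPKM over the lower DEGs, and 43 of the 107 and 51 of the 119 stayed under 10 FPKM on average. At the other end, 14 of the higher and 10 of the lower DEGs averaged at least 100 FPKM. The 107 higher genes took 0.992% to 1.40% of all FPKM in the Summer Black libraries and 0.0629% to 0.0802% in the Victoria libraries. For the 119 lower genes these shares were 0.146% to 0.263% in Summer Black and 1.91% to 2.34% in Victoria. Among the DEGs, 28 of the higher and 16 of the lower ones moved by 4 or more on the log2 scale. Over all genes tested, called or not, 221 were higher and 344 lower by 2 or more. The median log2 fold change of all genes tested was -0.02, with a median SE of 0.23.

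**Figure D1:**
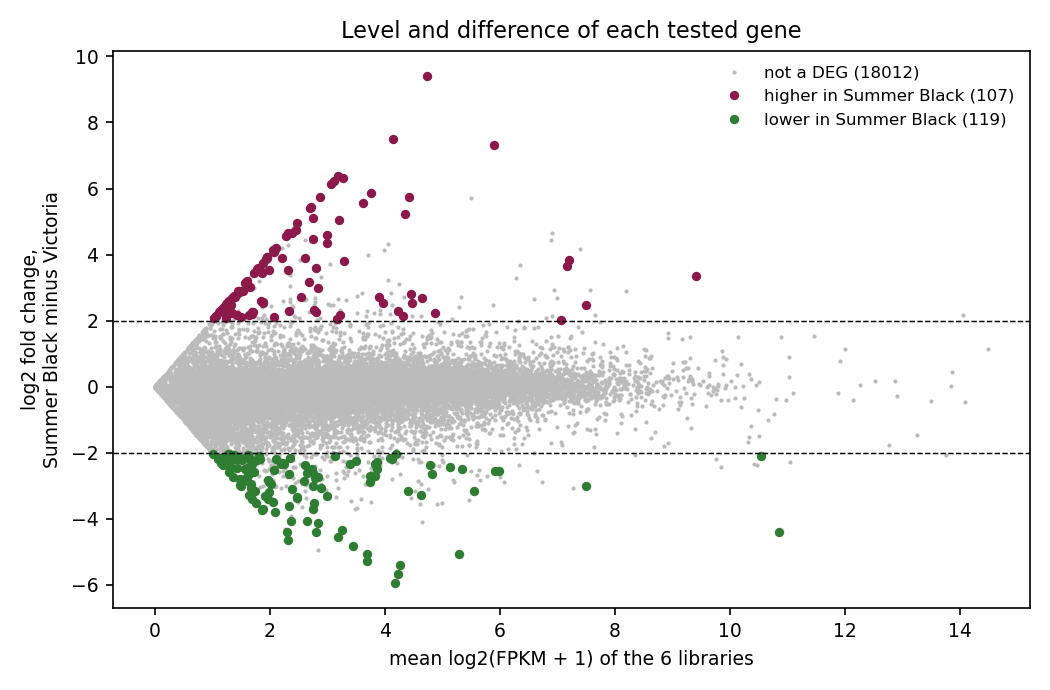
Mean level of each tested gene over the 6 libraries (x axis, mean of log2(FPKM + 1)) against its log2 fold change, Summer Black minus Victoria (y axis), with dashed lines at 2 and -2. The 107 higher DEGs (red) and 119 lower DEGs (green) lie among the other genes tested (grey), and most of them are at the low end of the x axis.

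The files and the reference pair almost none of the identifiers with a name. The 20 candidate genes of the study are therefore the only ones described by function, and the other genes are given by identifier, which carries the chromosome and the scaffold number (VIT_19s0014g05370 is on chromosome 19, scaffold 19s0014). The total of all FPKM was 720296 to 764221 in the 6 libraries, and the 5 most abundant genes of a library took 15.1% to 16.7% of it in Summer Black and 11.1% to 15.9% in Victoria. Between 10598 and 10707 genes were listed at 0 in the Summer Black libraries, and between 9440 and 10178 in the Victoria libraries. Summer Black libraries differed from each other by 0.654 to 0.683 (root mean square of the log2 difference over the genes tested), and Victoria libraries by 0.44 to 0.693. The table holds no read numbers of single genes, so the counting error of a single value could not be computed and a value of 0 is reported only as listed at 0.

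The largest increases among the DEGs included genes that were abundant in Summer Black and hardly registered in Victoria. VIT_04s0079g00690 had 360.1, 1644 and 553 FPKM in Summer Black, against 0, 0 and 0.0553 FPKM in Victoria (log2 fold change 9.41, SE 0.52, adjusted p = 0.000692). All Summer Black libraries were high, with the second well above the other ones. The next largest, VIT_05s0077g02020, had 270.0, 172 and 292 FPKM in Summer Black and 0.451, 0.457 and 0.0927 FPKM in Victoria (7.5, SE 0.25, adjusted p = 0.000151). VIT_05s0136g00260 stood at 359.6, 1500.4 and 790.3 FPKM in Summer Black and at 1.75, 7.85 and 3.33 FPKM in Victoria (7.32, SE 0.62, adjusted p = 0.00217), again with the second Summer Black library far above the first. VIT_11s0118g00370 was listed at 0 in every Victoria library and had 194, 33.5 and 84.8 FPKM in Summer Black (adjusted p = 0.00307). The steadiest of the 10 genes with the largest increase were those of chromosome 19 described below and VIT_01s0011g01740, with 119.7, 85.9 and 104 FPKM in Summer Black against 1.18, 0.691 and 0.508 FPKM in Victoria (5.87, SE 0.21, adjusted p = 0.000151). VIT_16s0039g02230 and VIT_18s0001g09400 completed the list with log2 fold changes of 6.31 (SE 0.78, adjusted p = 0.00765) and 5.73 (SE 0.60, adjusted p = 0.00456). Without Victoria replicate 2 the calls of VIT_04s0079g00690, VIT_05s0136g00260, VIT_11s0118g00370, VIT_16s0039g02230 and VIT_18s0001g09400 ended (adjusted p = 0.0108, 0.0131, 0.0244, 0.0462 and 0.0313), and those of the other 5 were kept whichever library was left out. Without Summer Black replicate 3 the calls of VIT_05s0136g00260, VIT_11s0118g00370, VIT_16s0039g02230 and VIT_18s0001g09400 also ended. The same 4 were lost without Victoria replicate 3, the last 3 of them without Victoria replicate 1, and VIT_18s0001g09400 without Summer Black replicate 2 as well. With 1 library left out the log2 fold changes of these 4 genes lay between 5.18 and 7.85, and no adjusted p exceeded 0.0462.

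The largest decreases were mostly in genes that were well expressed in Victoria. VIT_03s0088g00710 had 0.461, 1.17 and 3.02 FPKM in Summer Black, against 76.8, 198 and 184 FPKM in Victoria (-5.93, SE 0.49, adjusted p = 0.00212). VIT_08s0007g06060 stood at 1.16, 1.65 and 3.55 FPKM in Summer Black and at 65.5, 237 and 119.7 FPKM in Victoria (-5.39, SE 0.50, adjusted p = 0.00323). In both genes the first Victoria library was the lowest of its cultivar and Summer Black replicate 3 the highest of its own, with a wide gap between them. VIT_00s0324g00050 was tighter, at 0.895, 0.781 and 1.59 FPKM in Summer Black and 71.8, 49.8 and 51.0 FPKM in Victoria (-4.81, SE 0.23, adjusted p = 0.000431). VIT_04s0210g00060 was listed at 0 in all 3 Summer Black libraries and had 17.9, 24.6 and 32 FPKM in Victoria (adjusted p = 0.000526). VIT_12s0028g03230 had 0.0389, 0.22 and 0 FPKM in Summer Black, against 20.2, 22.9 and 22.2 FPKM in Victoria (-4.39, SE 0.18, adjusted p = 0.00028). These last 3 genes were called whichever library was left out. VIT_18s0166g00250, VIT_18s0166g00260, VIT_05s0049g00550, VIT_07s0005g06090 and VIT_05s0049g02240 made up the 10, with log2 fold changes between -5.65 and -4.56. Without Victoria replicate 2 the calls of 7 of the 10 ended, with adjusted p-values of 0.0131 to 0.0471. Of these 7, the fit without Summer Black replicate 1 lost 5, without Summer Black replicate 2 lost 6, without Summer Black replicate 3 lost 1, without Victoria replicate 1 lost 3 and without Victoria replicate 3 lost 4. VIT_18s0166g00260 was lost without Victoria replicate 2 only, and no log2 fold change of the 10 genes moved above -4.17.

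Both directions also held genes that were abundant in the skin. VIT_19s0093g00190 was the most abundant higher DEG, with 2736, 2198 and 1678 FPKM in Summer Black and 315, 149.9 and 204 FPKM in Victoria, a 9.89-fold difference of the means (log2 fold change 3.34, SE 0.33, adjusted p = 0.00376). VIT_03s0180g00200 had 438, 495 and 784 FPKM in Summer Black, against 30.6, 30.5 and 59.4 FPKM in Victoria (3.82, SE 0.33, adjusted p = 0.00249), and its level in the other 9 libraries was 8.25 to 40.5 FPKM. VIT_10s0116g00530 reached 413, 700.2 and 459 FPKM in Summer Black and 20.8, 41.2 and 70.2 FPKM in Victoria (3.67, SE 0.44, adjusted p = 0.00704). On the other side stood VIT_05s0094g00350, one of the most abundant transcripts of Victoria skin. It had 723, 563 and 164 FPKM in Summer Black, against 9222, 6610.4 and 10080.1 FPKM in Victoria (-4.38, SE 0.58, adjusted p = 0.00941), and it lay between 3155 and 17770.1 FPKM in all 9 libraries of the other cultivars. Summer Black had the lowest level of this transcript of the 5 cultivars, and its replicate 3 was the lowest. The call also ended with median-of-ratios scaling and with quantile normalization. VIT_19s0015g02880 had 907, 654 and 637 FPKM in Summer Black, against 2783, 2981 and 3615 FPKM in Victoria (-2.10, SE 0.25, adjusted p = 0.00708). VIT_04s0044g00020 stood at 76.1, 70.2 and 47.3 FPKM in Summer Black and at 522, 454 and 559.9 FPKM in Victoria (-2.99, SE 0.21, adjusted p = 0.00136), and VIT_19s0015g02730 at 37.6, 25.9 and 16.2 FPKM in Summer Black and 124, 174 and 163 FPKM in Victoria (-2.55, SE 0.31, adjusted p = 0.00696). Of the 5 most abundant DEGs in each direction none was called without Victoria replicate 2 (adjusted p = 0.0108 to 0.0454). With the exception of VIT_04s0079g00690 and VIT_04s0044g00020, each lost its call without at least 1 other library as well, and each of the other 5 libraries ended some of these calls (adjusted p up to 0.0454 over all fits). In bulk skin, fewer cells of a type and less RNA per cell cannot be told apart.

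A short stretch of chromosome 19 was well expressed in Summer Black skin and listed at or near 0 in the other 4 cultivars. VIT_19s0014g05370 had 66.2, 84.3 and 74.3 FPKM in Summer Black and was listed at 0 in each of the other 12 libraries (adjusted p = 9.31e-05). VIT_19s0014g05380 had 64.2, 77.4 and 68.2 FPKM in Summer Black, and among the other 12 libraries its only value above 0 was 0.0989 FPKM, in Midknight Beauty (adjusted p = 9.31e-05). VIT_19s0014g05360 stood at 45.1, 57.0 and 56.7 FPKM (adjusted p = 0.000147) and VIT_19s0014g05400 at 18.3, 18.9 and 14.6 FPKM (adjusted p = 0.000306) in Summer Black, and both were listed at 0 in the other 12. The 4 genes have consecutive identifiers among those the table lists, and the Summer Black libraries differed little from each other, with a coefficient of variation of 9.67% to 13.4%. Another gene of the stretch, VIT_19s0014g05330, was a DEG at a lower level, with 3.82, 5.22 and 3.31 FPKM in Summer Black and 0, 0.0656 and 0.0569 FPKM in Victoria (adjusted p = 0.00202). Between it and the run, VIT_19s0014g05340 and VIT_19s0014g05350 were at or near 0 in all 15 libraries. The genes on either side did not share the pattern. VIT_19s0014g05320 had 5.15, 4.99 and 7.78 FPKM in Summer Black and 7.2, 11.1 and 10.8 FPKM in Victoria (-0.62, SE 0.25, adjusted p = 0.187), and VIT_19s0014g05410 had 1.25, 2.69 and 2.0 FPKM in Summer Black and 2.74, 2.19 and 1.77 FPKM in Victoria (-0.14, SE 0.24, adjusted p = 0.775). The calls of the run of 4 were kept whichever library was left out. All 4 were listed at 0 in Victoria, so leaving out a Victoria library could not change their differences. They met the expression filter through the Summer Black libraries alone. The call of VIT_19s0014g05330 ended when Victoria replicate 1, 2 or 3 was left out (adjusted p up to 0.0196). The identifiers of these neighbours were looked up after the values were seen, and whether reads of near-identical copies were shared among them cannot be seen from the table.

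**Figure D2:**
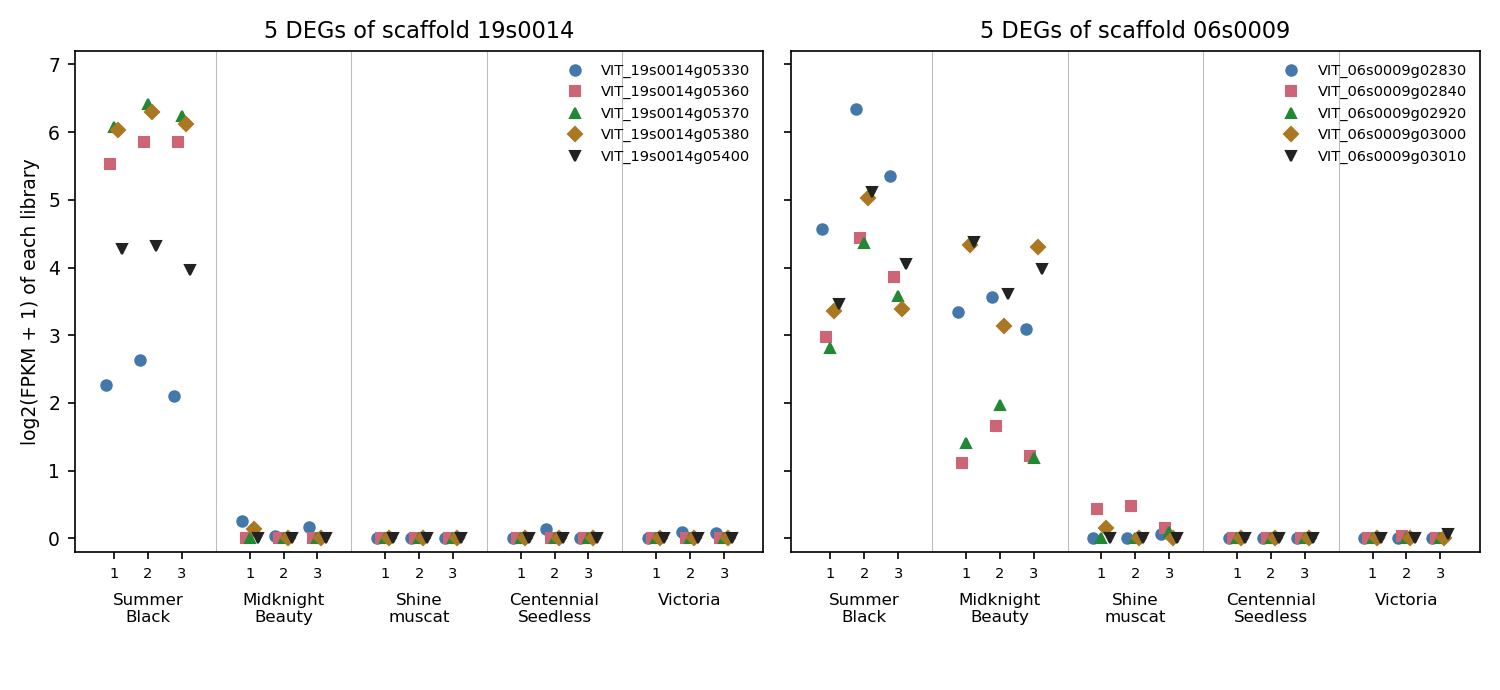
Level of 5 DEGs of scaffold 19s0014 (left) and 5 DEGs of scaffold 06s0009 (right) in each of the 15 libraries, as log2(FPKM + 1), with replicates 1 to 3 of each cultivar side by side. The chromosome 19 genes rise clearly above 0 in Summer Black alone, and those of chromosome 6 in Summer Black, highest in its second library, and at a lower or similar level in Midknight Beauty.

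On chromosome 6, 5 DEGs lay within a stretch of 15 listed identifiers of scaffold 06s0009, and in 3 of the 5 all libraries of the second dark cultivar, Midknight Beauty, were nearer to Summer Black than to Victoria. VIT_06s0009g02830 had 22.7, 80.2 and 39.6 FPKM in Summer Black and was listed at 0 in all Victoria libraries (adjusted p = 0.00192), and Midknight Beauty had 7.55 to 10.8 FPKM. VIT_06s0009g03010 had 9.97, 33.6 and 15.6 FPKM in Summer Black, against 0, 0 and 0.0473 FPKM in Victoria (4.19, SE 0.42, adjusted p = 0.00388), and 11.2 to 19.7 FPKM in Midknight Beauty. VIT_06s0009g03000 stood at 9.22, 31.6 and 9.45 FPKM in Summer Black and at 0 in Victoria (adjusted p = 0.00667), with 7.78 to 19.1 FPKM in Midknight Beauty. VIT_06s0009g02840 reached 6.83, 20.7 and 13.6 FPKM and VIT_06s0009g02920 reached 6.03, 19.6 and 10.9 FPKM in Summer Black (adjusted p = 0.00391 and 0.00493). In these last genes Midknight Beauty was lower, at 1.16 to 2.17 and 1.27 to 2.93 FPKM, on the Victoria side of the midpoint in the first and on both sides in the second. In the green Shine muscat and Centennial Seedless no library had more than 0.391 FPKM of any of the 5 genes. Of the 15 identifiers, 10 had at least 1 FPKM in some Summer Black library, and in all 10 the second Summer Black library was the highest and the first the lowest of its cultivar. The 5 calls ended without Victoria replicate 2 (adjusted p = 0.0186 to 0.0416) and without Summer Black replicate 3, and VIT_06s0009g02830 was kept in the other 4 fits. The other 4 genes were also lost without Victoria replicate 1 or 3, and VIT_06s0009g03000 without Summer Black replicate 1.

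The same split by skin colour was seen in 12 of the 107 higher DEGs. In these genes all 3 Midknight Beauty libraries lay on the Summer Black side of the midpoint between the Summer Black and Victoria means (log2 scale), and all 6 libraries of the green muscat cultivars on the Victoria side. Among the 119 lower DEGs 1 had this pattern, VIT_16s0039g02290. The like counts for a green cultivar alone were 11 higher and 9 lower DEGs in Shine muscat. For Centennial Seedless alone they were 2 higher and 3 lower. No share of these patterns over all genes tested is given here, and a link to skin colour was not tested. Besides 3 genes of chromosome 6, the 12 included VIT_04s0079g00690, where Midknight Beauty had 304 to 697 FPKM, VIT_05s0136g00260 (130.1 to 419.7), VIT_16s0039g02230 (30.8 to 84.6) and VIT_18s0001g09400 (27.5 to 60.5). VIT_16s0050g00910 had 87.7, 256 and 86.4 FPKM in Summer Black, 39.3 to 112 FPKM in Midknight Beauty and 2.29, 2.45 and 2.33 FPKM in Victoria (5.23, SE 0.42, adjusted p = 0.00193). VIT_01s0010g03510 had 14.1, 65.7 and 21.2 FPKM in Summer Black and 0, 0.0621 and 0.125 FPKM in Victoria (4.73, SE 0.53, adjusted p = 0.00566), and it was listed at 0 in all 6 libraries of the green muscat cultivars. The remaining ones were VIT_02s0033g00410, VIT_16s0115g00460 and Vitis_vinifera_newGene_1457, the newly assembled gene with the largest increase (14.4, 36.2 and 22.4 FPKM in Summer Black and 0 in Victoria, adjusted p = 0.00153). No green library, Victoria included, had more than 13.0 FPKM of any of the 12 genes. The second Summer Black library was the highest of its cultivar in all 12, by 1.25 to 10.8 times over the lowest. Over all 107 higher DEGs it was the highest in 46, replicate 1 in 35 and replicate 3 in 26. Without that library 10 of the 12 calls were kept, while 10 were kept without Summer Black replicate 1, 5 without Summer Black replicate 3, 6 without Victoria replicate 1, 1 without Victoria replicate 2 and 5 without Victoria replicate 3. No name is given for these identifiers, so whether any belongs to the anthocyanin pathway was not tested.

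The other 3 cultivars were nearer to Victoria in most higher DEGs and lay more evenly between both cultivars in the lower ones. In 42 of the 107 higher DEGs (39.3%) all 9 libraries of the other 3 cultivars were on the Victoria side, and in 6 (5.61%) all 9 were on the Summer Black side. Of the 119 lower DEGs, 26 (21.8%) had all 9 on the Victoria side and 16 (13.4%) all 9 on the Summer Black side. On a scale with 0 at the Summer Black mean and 1 at the Victoria mean of a gene, the median over the higher DEGs was 0.894 in Midknight Beauty, 0.89 in Shine muscat and 0.949 in Centennial Seedless. Over the lower DEGs it was 0.755, 0.467 and 0.651 in the same cultivars. These libraries did not enter the test, but the DEGs were chosen for the distance between the ends of the scale, so these values are a description. Of the 42 calls, 8 were kept without Victoria replicate 2.

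**Figure D3:**
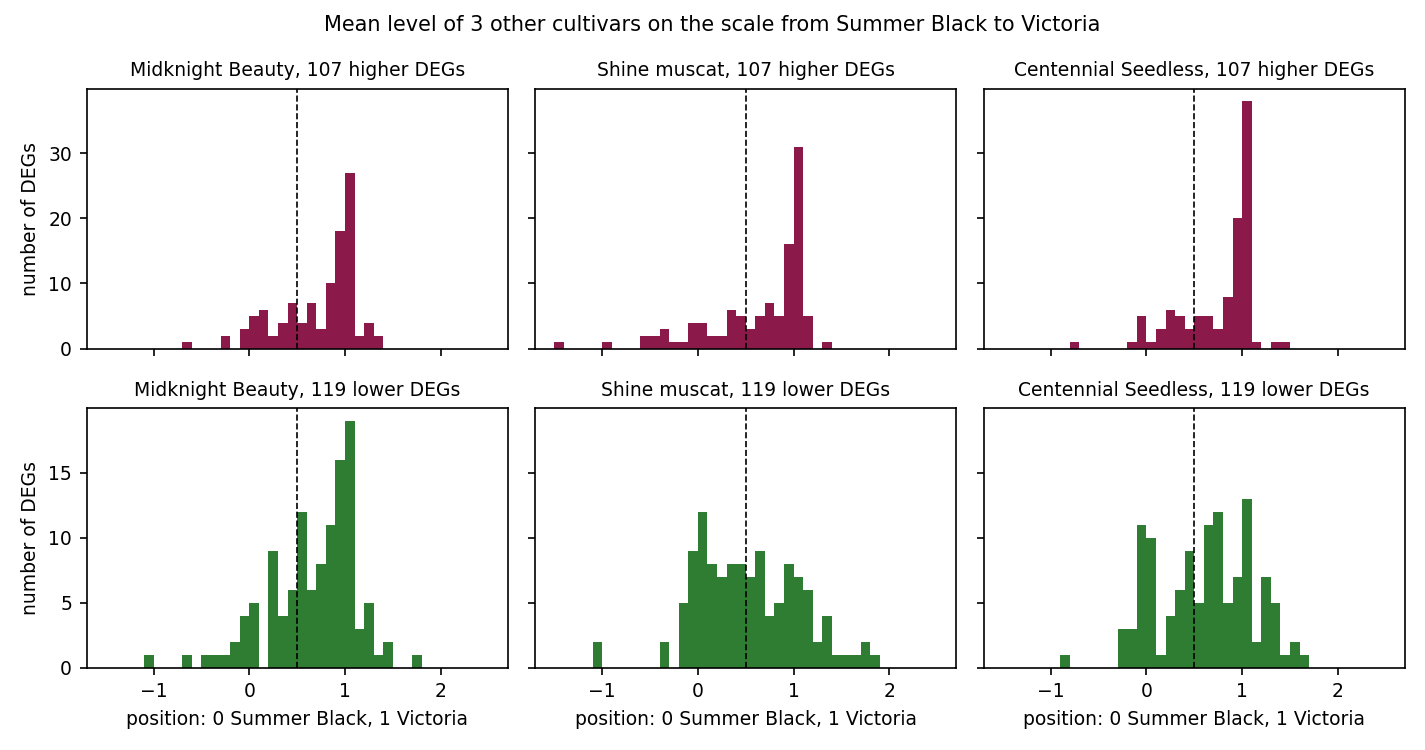
Number of DEGs (y axis) by the mean level of Midknight Beauty, Shine muscat or Centennial Seedless on a scale where 0 is the Summer Black mean and 1 the Victoria mean of the same gene (x axis, log2(FPKM + 1)), for 107 higher (red) and 119 lower (green) DEGs. The dashed line marks the midpoint, and the higher DEGs pile up near 1 in each cultivar while the lower ones spread out, with a median of 0.467 in Shine muscat.

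Shine muscat alone was on the Summer Black side in 11 higher and 9 lower DEGs. VIT_05s0077g02020, the second largest increase, had 254 to 269.8 FPKM in Shine muscat, as much as in Summer Black, and VIT_06s0004g01250 had 38.2, 43.5 and 34.5 FPKM in Summer Black, 32.6 to 57.4 FPKM in Shine muscat and 0.161, 0.0689 and 0.202 FPKM in Victoria (5.11, SE 0.18, adjusted p = 0.000151). Both were called whichever library was left out. For VIT_03s0017g02260 the level of Shine muscat was far beyond that of Summer Black, at 613 to 1091 FPKM. Summer Black had 10.8, 41.6 and 10.9 FPKM of it, against 0, 0.371 and 0.269 FPKM in Victoria (3.91, SE 0.52, adjusted p = 0.00972), a call that was kept only in the fit without Summer Black replicate 2 (adjusted p up to 0.05 in the other fits). Centennial Seedless alone shared a high level of VIT_11s0052g01770 with Summer Black, at 25.4 to 31.9 FPKM. This gene had 35.3, 44.1 and 47.7 FPKM in Summer Black and was listed at 0 in Victoria, Midknight Beauty and Shine muscat (adjusted p = 0.000151, kept in all 6 fits with a library left out). These genes were picked after their values were seen.

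The 16 lower DEGs with all 9 other libraries on the Summer Black side have Victoria as the highest of the 5 cultivars by definition. Victoria was not always the one cultivar with an appreciable level. VIT_19s0015g02880, one of the 16 genes, had 833 to 1155 FPKM in Centennial Seedless. A run of 4 neighbours on the unplaced scaffold 00s0160 was the longest such block. VIT_00s0160g00100 had 0.778, 0.63 and 0.228 FPKM in Summer Black and 20.4, 28.7 and 25.7 FPKM in Victoria (-4.07, SE 0.23, adjusted p = 0.000764). VIT_00s0160g00120 had 3.35, 4.44 and 4.13 FPKM in Summer Black and 34.6, 42.2 and 30.6 FPKM in Victoria (-2.88, SE 0.19, adjusted p = 0.00108). VIT_00s0160g00110 and VIT_00s0160g00130 fell by 3.71 and 2.73 on the log2 scale (SE 0.35 and 0.28, adjusted p = 0.00341 and 0.00393). In the other 9 libraries none of the 4 exceeded 5.16 FPKM. Without Victoria replicate 2 no gene of the run was called (adjusted p = 0.0104 to 0.0313), and the calls of VIT_00s0160g00110 and VIT_00s0160g00130 also ended without Victoria replicate 1 or 3, that of VIT_00s0160g00110 without Summer Black replicate 2 and that of VIT_00s0160g00130 without Summer Black replicate 1 or 3. VIT_11s0052g01230 behaved alike, with 0, 0.00166 and 0.0556 FPKM in Summer Black and 10.4, 13.9 and 13.1 FPKM in Victoria (-3.71, SE 0.19, adjusted p = 0.000497), and at most 0.437 FPKM in the other cultivars. Its call was kept whichever library was left out.

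In all, 34 of the 226 DEGs stood in 14 runs of consecutive identifiers with the same direction, 8 runs higher with 19 genes and 6 runs lower with 15 genes. Besides the runs of 4 on scaffolds 19s0014 and 00s0160, there were runs of 3 on scaffolds 00s0279 (higher) and 18s0117 (lower), and 10 pairs. VIT_00s0279g00030, VIT_00s0279g00040 and VIT_00s0279g00050 had 4.81 to 10.5 FPKM in the Summer Black libraries and were listed at 0 in every Victoria library (adjusted p = 0.000391 to 0.000792). VIT_18s0117g00070 had 0.0258, 0.658 and 0.177 FPKM in Summer Black, against 26.2, 22.3 and 14.3 FPKM in Victoria (-4.08, SE 0.30, adjusted p = 0.00162). The pair VIT_16s0115g00460 and VIT_16s0115g00470 was at 12.6 to 18.3 FPKM in Summer Black and at most at 0.0909 FPKM in Victoria (adjusted p = 0.000306 for each). Without Victoria replicate 2, 7 of the 34 calls were kept. Neighbouring copies can share reads, so the genes of a run are not independent. By the chromosome number in the identifier, 2.19% of the genes tested on chromosome 16, 2.14% on chromosome 13 and 1.96% on chromosome 19 were DEGs, against 0.138% on chromosome 17 (1 of 724), with 1.24% of all genes tested. The genes of unplaced scaffolds had the highest share, 2.59% (34 of 1312). Shares include the runs, and no test was made on them.

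Some genes were listed at 0 in every library outside Summer Black, or in Summer Black alone. Among the genes tested, 16 had at least 1 FPKM in all 3 Summer Black libraries and were listed at 0 in the other 12 libraries. Of these, 10 were DEGs, among them 3 genes of the chromosome 19 run, and 5 were newly assembled genes. Vitis_vinifera_newGene_1924 was the highest of the new ones, with 10.7, 9.77 and 11.9 FPKM in Summer Black (adjusted p = 0.000391, kept in all 6 fits with a library left out). The 16 genes met the expression filter through the Summer Black libraries alone. Leaving out a Victoria library could not change their differences. A level of 0 in all Summer Black libraries and at least 1 FPKM in the other 12 was found for 4 genes. This rule asks for 1 FPKM in 12 libraries rather than 3, so the 16 and the 4 are not like counts. The 1 DEG of the 4, VIT_13s0019g00470, had 11.9, 10.5 and 7.0 FPKM in Victoria and 6.997 to 12.3 FPKM in the other cultivars (adjusted p = 0.00118, and 0.0131 without Victoria replicate 2). Set against Victoria alone, 66 genes had at least 1 FPKM in all Summer Black libraries and 0 in all Victoria libraries, and 34 of them were DEGs. In the other direction 52 genes had at least 1 FPKM in all Victoria libraries and 0 in all Summer Black libraries, and 13 were DEGs. A gene near 1 FPKM cannot reach a log2 fold change of 2 on the log2(FPKM + 1) scale. Newly assembled genes made up 12 of the higher and 9 of the lower DEGs, which is 2.82% of the 745 new genes tested, beside 1.24% of all genes tested. The largest decrease among them was that of Vitis_vinifera_newGene_1651, listed at 0 in Summer Black and at 3.69, 6.37 and 13.0 FPKM in Victoria (adjusted p = 0.00907, a call that ended without any Summer Black library or Victoria replicate 2, with an adjusted p of at most 0.0483).

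Of the 20 candidate genes that the study named for aroma synthesis, 5 were DEGs, 3 higher and 2 lower in Summer Black. The study chose these genes on these libraries, so their number is not independent evidence, and it stands beside 1.24% of all genes tested. Their median log2 fold change was 1.45, against -0.02 over all genes tested. The adjusted p met 0.01 in 6, among them the transcription factor VvGATA (VIT_15s0024g00980), whose difference was under the fold required, with 5.04, 2.97 and 3.11 FPKM in Summer Black and 0.22, 0.175 and 0.188 FPKM in Victoria (log2 fold change 1.95, SE 0.21, adjusted p = 0.00479).

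The terpene synthases split in both directions, with 1 higher, 2 lower and 3 not called among 6 VvTPS. VIT_13s0067g00380 had 27.1, 15.2 and 6.60 FPKM in Summer Black and was listed at 0 in all Victoria libraries (adjusted p = 0.00651), and its neighbour in number, VIT_13s0067g00370, had 26.6, 11.9 and 5.67 FPKM in Summer Black, against 0.254, 0 and 0.239 FPKM in Victoria (3.52, SE 0.50, adjusted p = 0.0117). Both were at or near 0 in the other cultivars, with 0.11 FPKM as the highest value, and met the expression filter through the Summer Black libraries alone. In both genes the first Summer Black library was the highest and replicate 3 the lowest. The quantitative PCR primers that the study designed for the pair show how alike the transcripts are at these sites, and they are given 5′ to 3′ with the longest run shared by both genes in capitals.
VIT_13s0067g00370 forward: aGATGTTGTTGACAGGTGGGATA
VIT_13s0067g00380 forward: GATGTTGTTGACAGGTGGGATA
VIT_13s0067g00370 reverse: AAGCCATTTCATTAGTGGAGTTgta
VIT_13s0067g00380 reverse: AAGCCATTTCATTAGTGGAGTT
In each direction 22 bases are shared without a difference. Whether the reads of these genes were fully separable, and their values independent, cannot be seen from such short sites. Vitis_vinifera_newGene_3216, another VvTPS, had 12.5, 6.59 and 2.06 FPKM in Summer Black and 0.0233, 0 and 0 FPKM in Victoria (2.75, SE 0.51, adjusted p = 0.0258), with the first library again the highest. The pair of lower DEGs was listed at 0 in every Summer Black library. VIT_00s0271g00010 had 4.34, 6.12 and 4.74 FPKM in Victoria (adjusted p = 0.00119) and 26.2 to 31.4 FPKM in Shine muscat. VIT_13s0067g00050 had 3.85, 4.80 and 2.47 FPKM in Victoria (adjusted p = 0.00387) and at most 0.201 FPKM elsewhere. It met the expression filter through the Victoria libraries alone. VIT_13s0084g00010 overlapped between the cultivars (11.9, 4.85 and 3.06 FPKM in Summer Black, 3.84, 3.23 and 3.28 FPKM in Victoria, log2 fold change 0.60, SE 0.42, adjusted p = 0.424). VIT_00s0271g00010 was the only candidate whose call was kept whichever library was left out. Those of VIT_13s0067g00380 and VIT_13s0067g00050 were kept in 1 of the 6 fits each, the fits without Summer Black replicate 3 and without Victoria replicate 3, and reached adjusted p-values of up to 0.041 and 0.0185 otherwise.

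The 3 VvADH genes of the unplaced scaffold 00s0615 were all higher on average in Summer Black, and 2 of them were DEGs. VIT_00s0615g00010 had 5.73, 6.37 and 2.56 FPKM in Summer Black and 0.0745, 0 and 0 FPKM in Victoria (2.45, SE 0.30, adjusted p = 0.00704), and VIT_00s0615g00020 had 7.37, 3.96 and 5.96 FPKM in Summer Black and 0.36, 0.26 and 0.85 FPKM in Victoria (2.17, SE 0.27, adjusted p = 0.00752). The most abundant of the 3, VIT_00s0615g00030, stood at 59.0, 52.2 and 31.2 FPKM in Summer Black and 6.22, 10.8 and 12.5 FPKM in Victoria (2.16, SE 0.33, adjusted p = 0.014). In none of the 3 did a Summer Black library lie as low as any Victoria library. The ranges of the cultivars were apart in 31.7% of all genes tested. The study used the same reverse primer for the last 2 genes, shown in capitals because all of its bases are shared.
VIT_00s0615g00020 reverse: GTGGTGGTTCCATCATAGTAAGTG
VIT_00s0615g00030 reverse: GTGGTGGTTCCATCATAGTAAGTG
The forward primers of the pair share no run longer than 3 bases. The call of VIT_00s0615g00010 was kept only without Summer Black replicate 3 and that of VIT_00s0615g00020 in none of the 6 fits (adjusted p up to 0.0454 and 0.0462).

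None of the other 11 candidates was a DEG here. The study tested counts and also compared muscat grapes with Victoria, so these results are no check of its calls. It also measured its candidates by quantitative PCR and reports that the levels broadly matched its sequencing. The largest difference among them was that of VvMYB VIT_03s0063g02620, with 0.105, 0.138 and 0 FPKM in Summer Black and 4.68, 86.3 and 19.2 FPKM in Victoria (-4.32, SE 0.91, adjusted p = 0.0377), where the Victoria libraries spread widely and the second was by far the highest. The other VvMYB, VIT_17s0000g07950, had 19.5, 13.6 and 6.02 FPKM in Summer Black and 2.77, 2.59 and 2.98 FPKM in Victoria (1.76, SE 0.39, adjusted p = 0.0451). VvBGLU (VIT_03s0063g02490) had 25.4, 26.6 and 21.2 FPKM in Summer Black and 3.96, 8.67 and 13.2 FPKM in Victoria (1.52, SE 0.38, adjusted p = 0.0591). The neighbouring VvUGT genes differed in sign, at 1.02 (SE 0.23, adjusted p = 0.0459) for VIT_17s0000g07070 and -1.25 (SE 0.22, adjusted p = 0.0217) for VIT_17s0000g07060, both at no more than 3.74 FPKM in any of the 6 libraries. For the cytochrome P450 VvCYP (VIT_08s0007g07730), the short-chain dehydrogenase VvSDR (VIT_08s0040g01200) and VvDXS (VIT_05s0020g02130) the log2 fold changes were -2.36 (SE 0.44), 1.67 (SE 0.35) and 0.53 (SE 0.22), with adjusted p-values of 0.0264, 0.037 and 0.193. The cinnamoyl-CoA reductase genes VvCCR had log2 fold changes of -1.18 (SE 0.18, adjusted p = 0.0152) for VIT_13s0047g00940 and 1.37 (SE 0.46, adjusted p = 0.123) for VIT_13s0067g00620. Of the 11, the ranges of the cultivars overlapped in VvDXS only, while they were apart in 31.7% of all genes tested. The study chose these genes on these libraries.

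**Figure D4:**
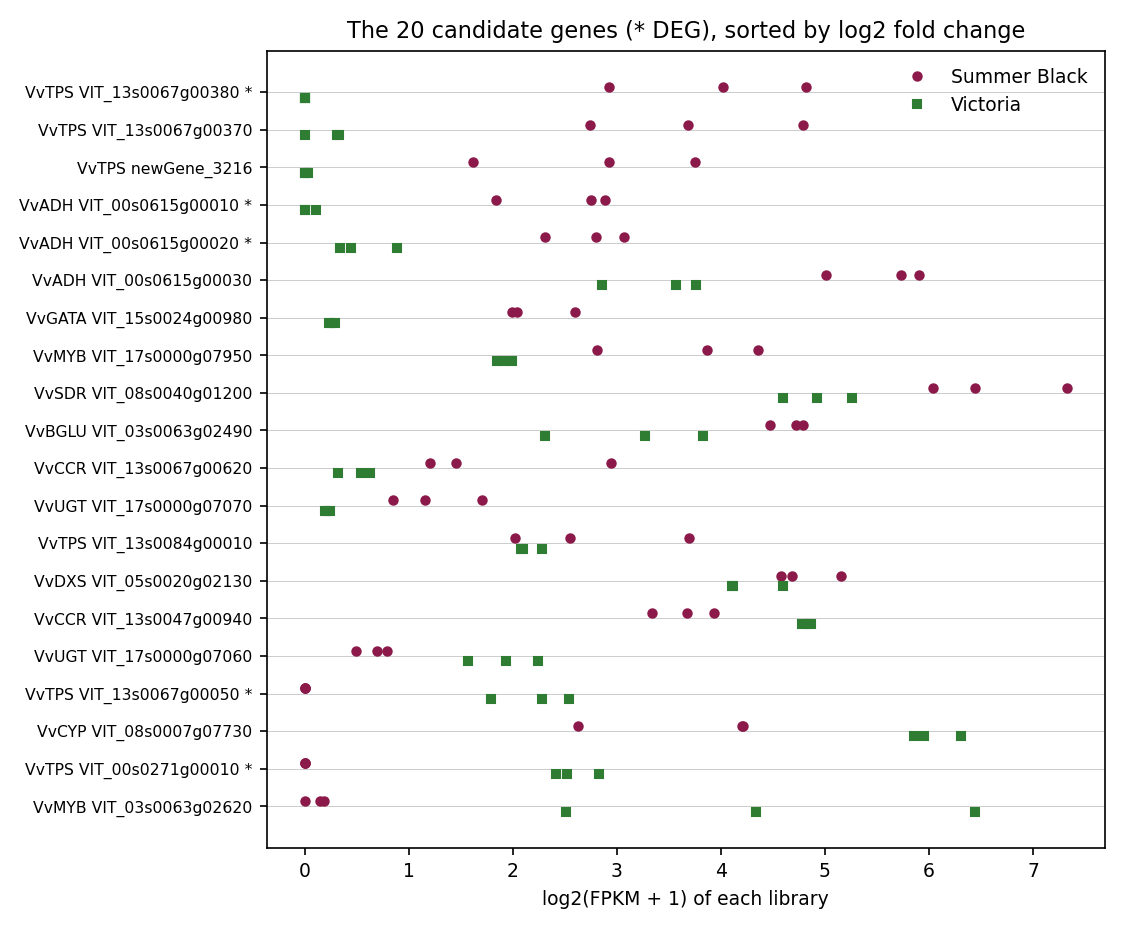
Level of the 20 candidate genes in the 3 Summer Black (red circles) and 3 Victoria (green squares) libraries, as log2(FPKM + 1), sorted by log2 fold change, with an asterisk for the 5 DEGs. In 18 of the 20 genes, which the study chose on these libraries, the points of both cultivars are apart, beside 31.7% of all genes tested. The 3 largest positive differences are those of TPS genes, and the largest negative one is that of a VvMYB.

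The study lists 14 further genes with their expression at ripening and without names, and 8 of them were DEGs here, 2 higher and 6 lower in Summer Black. They too were chosen on these libraries, their number stands beside 1.24% of all genes tested, and their median log2 fold change was -0.49. VIT_04s0079g00690, VIT_19s0093g00190 and VIT_19s0015g02880 are described above. VIT_12s0035g00010 had 0.744, 1.85 and 2.26 FPKM in Summer Black and 13.8, 27.4 and 36.9 FPKM in Victoria (-3.31, SE 0.41, adjusted p = 0.00778). The neighbours VIT_16s0022g01150 and VIT_16s0022g01160 had at most 0.477 FPKM in Summer Black, against 3.12 to 4.85 FPKM and 10.1 to 13.9 FPKM in Victoria (-2.05 and -3.39, SE 0.22 and 0.23, adjusted p = 0.00463 and 0.00123). VIT_06s0004g02060 and Vitis_vinifera_newGene_3002 were also lower, and the new gene was listed at 0 in every library outside Victoria (5.91, 7.03 and 4.33 FPKM in Victoria, adjusted p = 0.00153). The new gene met the expression filter through the Victoria libraries alone. None of the 8 was called without Victoria replicate 2 (adjusted p = 0.0108 to 0.0487), and 4 to 7 of the 14 genes were called with another library left out.

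The calls depended on single libraries more than the differences did. With 1 of the 6 libraries left out, 134 to 151 DEGs were found in 5 of the fits and 29 without Victoria replicate 2, and between 114 and 122 of the 226 calls were kept in the 5 fits. The ranges of the cultivars were apart in each of the 226, so leaving out a library could not turn the direction of any. On the log2 scale, 202 stayed past 2 in all 6 fits. All 29 DEGs found without Victoria replicate 2 were among the 226, and the highest adjusted p of the 226 was then 0.0566. The DEGs called in all 6 fits were 26 genes, 17 higher and 9 lower. They include the run of 4 on chromosome 19, VIT_05s0077g02020, VIT_06s0004g01250, VIT_11s0052g01770, VIT_01s0011g01740, VIT_00s0324g00050, VIT_04s0210g00060 and VIT_12s0028g03230, and VIT_08s0007g01030, with 0.75, 1.69 and 1.07 FPKM in Summer Black and 41.5, 42.1 and 42.9 FPKM in Victoria (-4.34, SE 0.21, adjusted p = 0.000391). Several of the 26 were listed at 0 in every library of a cultivar, and leaving out such a library did not change their difference. At the other end, 30 DEGs were called in none of the 6 fits. The balance of directions moved as well, with 94 higher and 51 lower DEGs without Summer Black replicate 1 and 57 higher and 94 lower without Victoria replicate 1. With the library number as a block in the fit of all 6 libraries, 9 of the 226 calls remained, 8 higher and 1 lower.

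**Figure D5:**
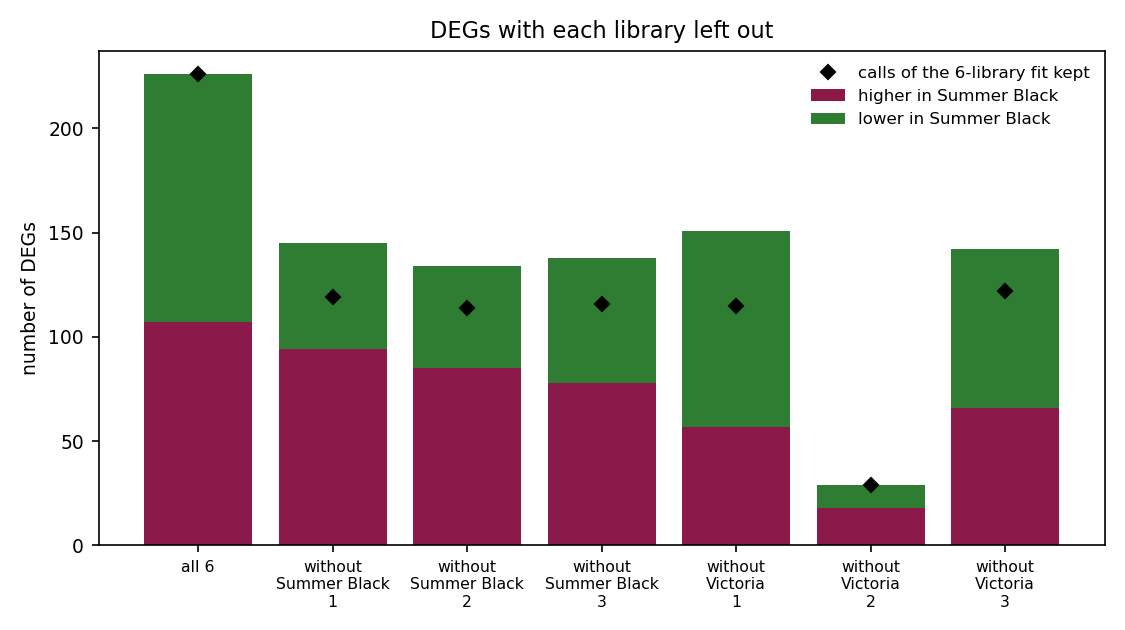
Number of DEGs higher (red) and lower (green) in Summer Black with all 6 libraries and with each library left out (stacked bars, y axis from 0), with diamonds for how many of the 226 calls were kept. The count falls to 134 to 151 in 5 of the fits and to 29 without Victoria replicate 2, where all 29 belong to the 226.

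Many large differences were not called. A difference of 2 or more on the log2 scale was found for 565 genes, 221 higher and 344 lower in Summer Black. Of these, 339 missed the adjusted p, and 199 of the 339 had an adjusted p of at most 0.05. The ranges of the cultivars were apart in 299 of the 339, beside 31.7% of all genes tested. The 339 were selected for a large difference, which makes separate ranges likely. The largest increase among these was that of VIT_03s0063g01330, with 366, 192 and 503 FPKM in Summer Black and 1.17, 3.86 and 22.3 FPKM in Victoria (5.72, SE 0.86, adjusted p = 0.0135). VIT_03s0088g00700, next to the largest decrease, had 0.0911, 0.203 and 0.638 FPKM in Summer Black and 10.4, 48.8 and 106 FPKM in Victoria (-4.93, SE 0.78, adjusted p = 0.0154). VIT_18s0122g00390 had 4.44, 74.7 and 52.6 FPKM in Summer Black and was listed at 0 in Victoria (adjusted p = 0.0313). VIT_16s0013g02160 was at 119 and 207 FPKM in Summer Black replicates 1 and 3 but listed at 0 in Summer Black replicate 2 and in all of Victoria (adjusted p = 0.178). A wide spread between the libraries of 1 cultivar was common to these genes, which were picked after their values were seen.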

How the data were processed

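RNA of ripe berry skin was sequenced in 15 libraries of 5 cultivars, 3 per cultivar. The submitters' processing notes name HISAT2 and StringTie, the study's methods name Bowtie2 and RSEM on the PN40024 assembly. The authors deposited FPKM per gene, annotated and newly assembled. Values below 0.15 FPKM showed no common step between libraries, so whole reads could not be recovered. The study gives mapped reads per library (not repeated here), with the smallest mapped share of the libraries compared in the third Summer Black library. Over all 15 libraries the share was smallest in the first Shine muscat library, which enters the descriptions of that cultivar. The part of mapping in the values was not tested. The labels and one part of the study give the library numbers as biological replicates at ripening, while its methods give them as growth stages. They were treated as replicates. The methods give bunches from several vines as one replicate and do not say whether replicates shared vines, so p-values measure only the spread between these libraries.

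FPKM were used as deposited, as log2(FPKM + 1), for genes with at least 1 FPKM in at least 3 of 15 libraries. The 6 libraries were compared with limma 3.58.1 (lmFit, eBayes with a variance trend) in R 4.3.3, and p-values were adjusted by Benjamini-Hochberg across the 18238 genes. Fold changes on this scale understate low genes, and none is printed against a cultivar listed at 0. The study's own test needs counts and was not used. Thresholds for DEGs were those of its results (2 on the log2 scale, 0.01 for the adjusted p), with those of its methods (1 and 0.005) as an alternative. Also tried were leaving out each library, the library number as a block, fitting the 5 cultivars together, dropping the variance trend, quantile or median-of-ratios scaling, omitting the filter or raising it to 5 FPKM, and adding 0.1 in place of 1. The code of the fit was run on simulated data with the same spread for every gene and changes in well expressed genes only. This checks the code and not the error rate of the calls in these libraries.

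Genes were named by rule: the 10 largest differences per direction without overlap between cultivars, the study's candidates and listed genes, the new gene with the largest change and the 5 most abundant DEGs per direction, with the most abundant member of each list. The genes, lists and comparisons were chosen with earlier results of these data known. Further genes, marked by the pattern they show, were picked after their values were seen. No identifier of the table was annotated by the reference used here, so other pathway lists and tissue markers had no members, and the skin label could not be checked against markers. Tables and figures were made with Python 3.11.15, pandas 2.3.3 and matplotlib.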

Additional observations from a re-analysis of the deposited data

How the results depend on the processing

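Of 226 DEGs (107 higher, 119 lower), a pseudocount of 0.1 gave 463 (212 and 251), no filter on low values 97 (58 and 39) and the fit of all 5 cultivars 446 (192 and 254). Of the 226, 203 were also called with the pseudocount of 0.1 and 224 in the fit of all 5 cultivars. Leaving out 1 library gave 29 to 151 DEGs, 18 to 94 of them higher and 11 to 94 lower. Of the 20 candidates, where 5 were DEGs, the pseudocount of 0.1 called 8, no filter 1, the filter at 5 FPKM 3, the fit of all 5 cultivars 10, the thresholds of the study's methods 3, and leaving out 1 library 1 to 5. None of the 60 named or candidate genes turned its direction under any setting. In the 39 DEGs among them the ranges of the cultivars were apart, so leaving out a library or changing the pseudocount could not turn the direction. Median-of-ratios scaling, the missing variance trend and quantile normalization kept the counts of DEGs within 1.5 times, but the call of VIT_05s0094g00350 ended under both scalings and those of VIT_16s0022g01150 and VIT_19s0015g02880 under quantile normalization. Of the 39 DEGs among the named genes, 23 were lost without the filter, 12 with the thresholds of the study's methods and 3 with the pseudocount of 0.1. The 8 DEGs among the 14 further genes became 4 without the filter. The 14 runs of neighbours became 30 with the pseudocount of 0.1, 30 in the fit of all 5 cultivars, 4 without the filter and 2 to 10 with 1 library left out, and the 12 genes of the dark-skin pattern 3 without the filter and 8 with the thresholds of the methods.

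With the replicate block 9 DEGs remained, 8 higher and 1 lower and all among the 226, with 0 of the 20 candidates, 0 of the 14 further genes, 1 run and 1 gene of the dark-skin pattern. Of the 26 genes called whichever library was left out, 6 were called with the block, while VIT_00s0271g00010, VIT_00s0324g00050, VIT_04s0210g00060 and VIT_12s0028g03230 were among those lost. The numbers were not taken as pairs, since the labels give them as replicates. The deviations of same-numbered libraries from their cultivar means correlated at 0.18, -0.16 and 0.13. Of the 3 Summer Black libraries, 2 correlated best with the Victoria library of their own number, so these values do not decide whether the numbers pair the libraries. Pairing by growth stage, which the study's methods would give, is not settled by these values.

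Without reads per gene, no counting error or lower limit was computed for genes listed at 0. The cause of these changes was not tested.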
